A study of Arabidopsis thaliana with 15 samples.

Results

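The step from 2 h to 12 h in abscisic acid (ABA) was examined in whole germinated Arabidopsis thaliana seeds with 6 of the 15 Affymetrix arrays of a time series, the 3 labelled 12 h and the 3 labelled 2 h. All 15 arrays were of Col-0 seed without any transgene or mutation named in the labels. Seeds had been kept cold and wet at 4 °C for 72 h, were then germinated at 22 °C under constant white light, and were taken when the radicle had emerged. They were then moved to darkness at 20 °C on a 10 µM solution of ABA, and sampled after 0, 2, 12, 24 and 72 h, with 3 biological replicates per time, each a pool of seed from several plants. The 2 h and 12 h groups therefore shared genotype, hormone dose, temperature and darkness, and differed in the hours spent in them. Seeds kept without ABA were not analysed here, so ABA, darkness and elapsed time cannot be told apart in this step. The time of day at harvest is not given in the sources used here.

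ABA is the hormone that holds seeds dormant and, when given just after germination, stops seedling growth and switches late-embryo genes back on. Its receptors of the PYR/PYL family bind and block clade A PP2C phosphatases, which frees SnRK2 kinases to phosphorylate transcription factors such as ABI5 and the ABFs. Seeds moved from light to darkness at this stage also lose the light signals that drive chlorophyll synthesis, photosynthesis genes and part of the circadian clock.

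Values are log2 expression values for 27981 loci, with 1 probe set per locus. A difference is the 12 h mean minus the 2 h mean on the log2 scale, so 1 unit is a doubling, and it is given with its standard error. A locus was called at a Benjamini-Hochberg adjusted p under 0.05 in limma, with all 15 arrays in 1 fit (the 15-array fit). The 2 h replicate 2 array stood apart from its mates, so the fit was repeated without it (the 14-array fit), and the counts of both are given for each list. A locus said to be called only without replicate 2 was called in the second of these fits and not in the first. Across loci its values correlated at 0.889 and 0.901 with those of its mates, against 0.986 to 0.995 for the other 13 replicate pairs. The interquartile range of its values was 2.89, against 3.73 to 4.12 on the other arrays. It lay above both mates at 53.7% of all loci and below both at 36.3%. Of the 913 loci called with a difference of at least 1 in the 14-array fit, it lay on the 12 h side of the midpoint at 650, which is 71.2%. It was also high for heat shock genes: at 22 of 27 listed loci it exceeded both mates, as for HSP17.6A, a small heat shock protein, at 11.38 against 4.93 and 5.43. The part of these properties in the results below was not tested.

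More loci rose than fell between 2 h and 12 h in the 15-array fit. Of 27981 loci, 916 were called up (3.27%) and 453 down (1.62%), together 1369 (4.89%). Differences reached at least 1 for 276 of those that rose and 171 of those that fell. Without 2 h replicate 2 the calls numbered 2362 up (8.44%) and 1914 down (6.84%), together 4276 (15.3%). The counts of each list below are to be read against these shares of all loci. The 2 fits shared 914 rises and 452 falls, no locus was called in opposite directions, and 3 calls of the 15-array fit were lost. The median difference over all loci was -0.09 in the 15-array fit and -0.035 in the 14-array fit. When each array was centred on its median, the median difference was -0.26 and the split turned, with 376 loci called up and 723 down, or 34.2% up against 66.9% before centring. The count changed with single arrays and with the times kept in the fit. It was 2146, 4276 and 4765 without 2 h replicates 1, 2 and 3, and 380, 659 and 385 without 12 h replicates 1, 2 and 3. With only the 6 arrays of 2 h and 12 h, limma called 0 loci, with 2749 at an unadjusted p under 0.05 and a smallest adjusted p of 0.0734. Of the 100 loci named by rule, 91 were called, and 32 of these were called whichever 1 of the 6 arrays was left out. Apart from 14 genes named whatever their values, naming required a call both with and without 2 h replicate 2. For loci outside those 14, the call itself and its survival without that array were therefore set by the rule. Centring removed 23 of the 91 named calls and repeated quantile normalization 25.

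**Figure D1:**
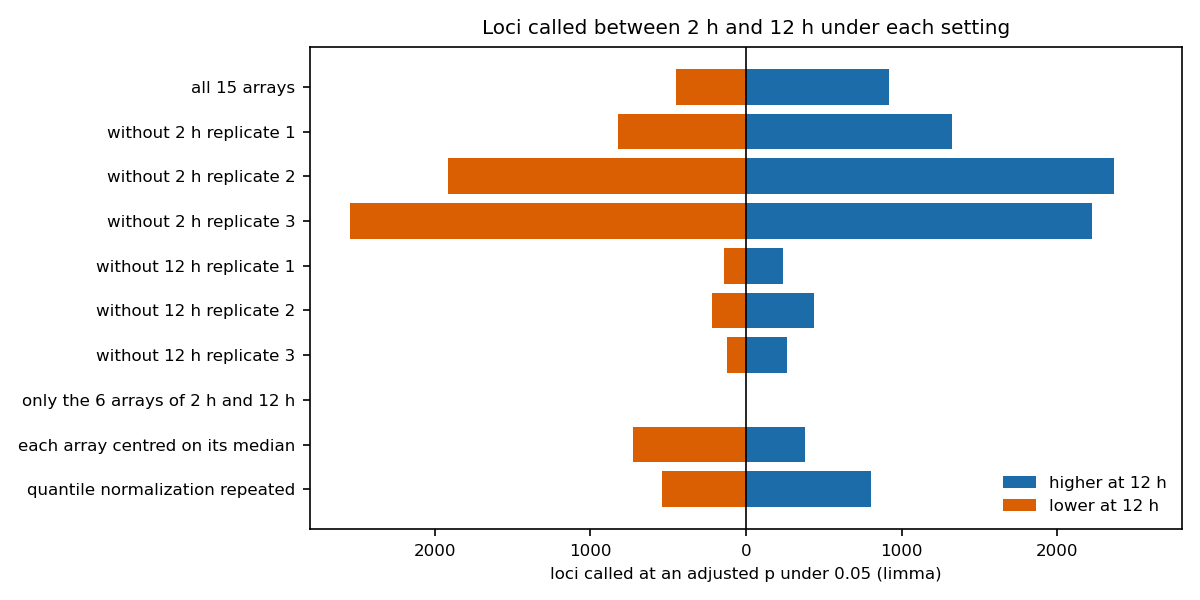
Loci called higher (blue, right) and lower (orange, left) at 12 h than at 2 h, as counts at a limma adjusted p under 0.05, for the 15-array fit and for each setting named at the left. The 15-array bars stand at 916 and 453, the bars without 2 h replicate 2 at 2362 and 1914, and the 6-array fit has no bar because it called 0 loci.

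Of the 12 largest rises that met the naming rule, 8 carry no gene symbol in the reference table and are given by locus. AT4G35720 read 3.59, 5.10 and 3.58 at 2 h and 7.40, 6.80 and 6.78 at 12 h. All 3 arrays at 12 h stood above all 3 at 2 h, which the rule required of each of the 12 and which held at 12.3% of all loci. The difference was 2.9 ± 0.36 (adjusted p = 0.00131), and 3.41 without 2 h replicate 2. AT2G39430 read 2.88, 3.40 and 3.31 at 2 h and 6.00, 5.37 and 5.81 at 12 h, a difference of 2.53 ± 0.21 (adjusted p = 1.11e-04). Its 2 h arrays lay near 3.21, the lower quartile of locus means. Array background was not measured separately, so a difference against values that low is given as read and not as a fold. AT2G39430 was high at 12 h alone among the 5 times, with means of 3.04 at 0 h, 3.94 at 24 h and 3.29 at 72 h. AT1G07690 was also high at 12 h and low at the neighbouring times. Its arrays read 4.35, 4.70 and 4.50 at 2 h and 7.0, 6.50 and 6.58 at 12 h (2.18 ± 0.24, adjusted p = 7.20e-04), and its means were 6.96 at 0 h, 4.59 at 24 h and 4.03 at 72 h.

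Among the rises with a symbol, ESE3, an ERF-type transcription factor named for its induction by ethylene and salt, read 4.95, 6.20 and 4.98 at 2 h and 7.59, 7.48 and 7.54 at 12 h. Its rise was 2.16 ± 0.28 (adjusted p = 0.00176), with replicate 2 the highest of the 2 h arrays but still below every 12 h array. MES1, a methyl esterase that releases salicylic acid from its methyl ester, rose by 2.56 ± 0.66 (adjusted p = 0.0424), from 3.67, 7.68 and 5.28 to 8.22, 8.06 and 8.02. PNP-A, a secreted plant natriuretic peptide, rose by 2.19 ± 0.49 (adjusted p = 0.0214), from 3.0, 5.62 and 4.09 to 6.51, 5.99 and 6.78. For both, the 2 h arrays were spread widely and replicate 2 lay nearest to the 12 h arrays. The other rises were AT1G65486, AT1G22885, AT2G40460, GI, AT4G22217 and AT5G39110, with differences from 2.16 to 2.4. The rises of MES1, AT1G65486, PNP-A, AT4G22217 and AT5G39110 lost their call when single arrays were left out, at adjusted p up to 0.14. That of MES1 was also lost with centring (adjusted p = 0.0739), and those of MES1 and PNP-A under repeated quantile normalization (adjusted p = 0.0677 and 0.0516). The rises of AT4G35720, AT2G39430, AT1G22885, AT2G40460, AT1G07690, GI and ESE3 kept their call.

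The 2 largest falls were of the early light-induced proteins, thylakoid proteins that bind chlorophyll and protect against excess light. ELIP1 read 8.07, 6.35 and 8.16 at 2 h and 3.35, 3.57 and 3.15 at 12 h. It fell by 4.17 ± 0.39 (adjusted p = 2.16e-04), with no overlap between the times, and its call held whichever array was left out. All 3 arrays at 12 h stood below all 3 at 2 h at 12.4% of all loci. ELIP2 read 9.33, 3.73 and 8.38 at 2 h and 3.27, 3.54 and 3.14 at 12 h, so that replicate 2 was already near the 12 h level. It fell by 3.83 ± 0.95 in the 15-array fit (adjusted p = 0.0354), and the difference was -5.53 without replicate 2. This call was lost without single arrays (adjusted p up to 0.122) and under repeated quantile normalization (adjusted p = 0.0996).

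RVE2, a MYB-like transcription factor of the clock family that carries LHY and CCA1, had the smallest standard error of the 12 falls. It read 8.08, 8.01 and 8.38 at 2 h and 5.62, 5.89 and 6.00 at 12 h, a difference of -2.32 ± 0.18 (adjusted p = 1.09e-04). Here replicate 2 lay with its mates. AT3G52740 also fell with close replicates, from 6.42, 6.19 and 6.51 to 4.44, 3.96 and 4.03 (-2.23 ± 0.21, adjusted p = 2.16e-04). SDR1, a short-chain dehydrogenase, fell from 4.92, 5.05 and 4.70 to 2.79, 2.94 and 2.58 (-2.12 ± 0.23, adjusted p = 6.12e-04). TAT7, a tyrosine aminotransferase of the tocopherol route, fell by 2.31 ± 0.44 (adjusted p = 0.0102), with replicate 2 at 7.14 above its mates at 4.63 and 5.99. The other 2 loci without a symbol, AT4G29905 and AT3G60540, fell by 2.19 ± 0.30 and 2.17 ± 0.34 (adjusted p = 0.0021 and 0.00416). HSP17.6II, a small heat shock protein, fell by 2.44 ± 0.60, but its 2 h reading of 6.83 on replicate 2 stood far above 4.03 and 4.33, and without that array the difference was -1.56. Its call was lost without any one of the 12 h arrays (adjusted p up to 0.121) and under repeated quantile normalization (adjusted p = 0.0524).

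Genes of photosynthesis moved mostly down. Of 49 nuclear genes for photosystems, antennae and carbon fixation, 10 fell and 0 rose in the 15-array fit, with a median difference of -0.77 against -0.09 over all loci, of which 1.62% were called down. The 14-array fit called 38 down and 0 up, with a median of -1.03 against -0.035, and 6.84% of all loci down. The falls numbered 7 and 8 without 2 h replicates 1 and 3, and 2, 1 and 1 without 12 h replicates 1, 2 and 3, and no setting with 1 array left out called a rise. Only PSAD2 had a difference above 0 in the 15-array fit. The list median on the arrays was 7.10, 5.01 and 7.21 at 2 h and 5.47, 5.18 and 5.49 at 12 h, so replicate 2 was below every 12 h array while its mates were above. PSBQ2, a subunit of the oxygen-evolving side of photosystem II, read 5.20, 4.56 and 5.49 at 2 h and 3.52, 2.85 and 3.35 at 12 h. It fell by 1.84 ± 0.24 (adjusted p = 0.00194) and was called whichever array was left out. LHCB1.2, an antenna protein of photosystem II, fell by 2.12 ± 0.48 (adjusted p = 0.0237), from 6.95, 4.89 and 6.52 to 3.95, 3.84 and 4.19. RCA, the activase of Rubisco, fell by 1.21 ± 0.28 (adjusted p = 0.0242), from 8.19, 6.67 and 7.73 to 6.51, 6.24 and 6.22. PETE1, a plastocyanin that carries electrons between the photosystems, fell by 1.81 ± 0.47 and PSAD1, a photosystem I subunit, by 1.46 ± 0.36.

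Other large differences in this list hung on replicate 2. RBCS1B, a small subunit of Rubisco, read 8.72, 3.09 and 8.04 at 2 h and 4.43, 4.27 and 4.37 at 12 h. It was not called in the 15-array fit (-2.26 ± 1.0, adjusted p = 0.165) and was called in the 14-array fit (-4.02 ± 0.35, adjusted p = 6.95e-06), with replicate 2 below the 12 h arrays and its mates far above them. LHCB1.2, PETE1 and PSAD1 lost their calls without single arrays (adjusted p up to 0.134), and PETE1 also under repeated quantile normalization (adjusted p = 0.198). Without 12 h replicate 2, and likewise without 12 h replicate 3, only PSBQ2 was called in the list, so RCA lost its call there too. In these bulk samples fewer cells of a type and less RNA per cell cannot be told apart.

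Of 21 genes of chlorophyll synthesis 2 fell and 0 rose, against 1.62% and 3.27% of all loci, with a median of -0.26. Without replicate 2, 13 were called down and 0 up, against 6.84% and 8.44% of all loci, with a median of -0.52. CHLH, the large subunit of magnesium chelatase, which commits porphyrin to chlorophyll, read 7.58, 3.84 and 7.0 at 2 h and 3.56, 3.81 and 3.43 at 12 h. It fell by 2.54 ± 0.66 (adjusted p = 0.0417), with replicate 2 only just above the 12 h arrays, and the difference was -3.69 without that array. CHLI2, another subunit of the same enzyme, fell by 0.99 ± 0.20 (adjusted p = 0.0134), from 7.52, 7.14 and 7.35 to 6.34, 6.34 and 6.37. The calls of CHLH and CHLI2 were lost without some single arrays, at adjusted p up to 0.141 and 0.0585, and that of CHLH under repeated quantile normalization (adjusted p = 0.147). PORB, a protochlorophyllide reductase that needs light to act, read 9.29, 6.43 and 9.16 and then 6.99, 6.62 and 6.89, and was called only without replicate 2 (-2.39 ± 0.19, adjusted p = 3.68e-06).

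Of 24 light signalling genes 2 rose and 2 fell, against 3.27% and 1.62% of all loci, with a median of 0.03. The falls were those of ELIP1 and ELIP2. PIF4, a bHLH factor that accumulates in darkness and promotes elongation, rose by 2.16 ± 0.27 (adjusted p = 0.00145), from 3.56, 4.99 and 4.67 to 6.57, 6.38 and 6.75, and kept its call whichever array was left out. HB2, a homeodomain factor of the shade response, rose by 0.66 ± 0.13 (adjusted p = 0.0144). Centring removed the call of HB2 (adjusted p = 0.0962), as did leaving out 12 h replicate 2 (adjusted p = 0.0611). The 14-array fit called 3 up and 7 down, against 8.44% and 6.84% of all loci. PIF5, the relative of PIF4, was added to the rises (1.39 ± 0.15, adjusted p = 4.87e-05), with 4.63, 6.62 and 4.82 at 2 h and 6.30, 5.85 and 6.19 at 12 h. HYH, the bZIP relative of HY5 that promotes greening, was added to the falls (-2.37 ± 0.17, adjusted p = 1.99e-06), with 6.93, 3.27 and 6.71 and then 4.54, 4.25 and 4.56. HY5 itself read 6.56, 5.42 and 6.23 and then 5.45, 5.52 and 5.48 (-0.91 ± 0.22, adjusted p = 0.0138, in that fit). In all 3 genes replicate 2 lay near or past the 12 h arrays.

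**Figure D2:**
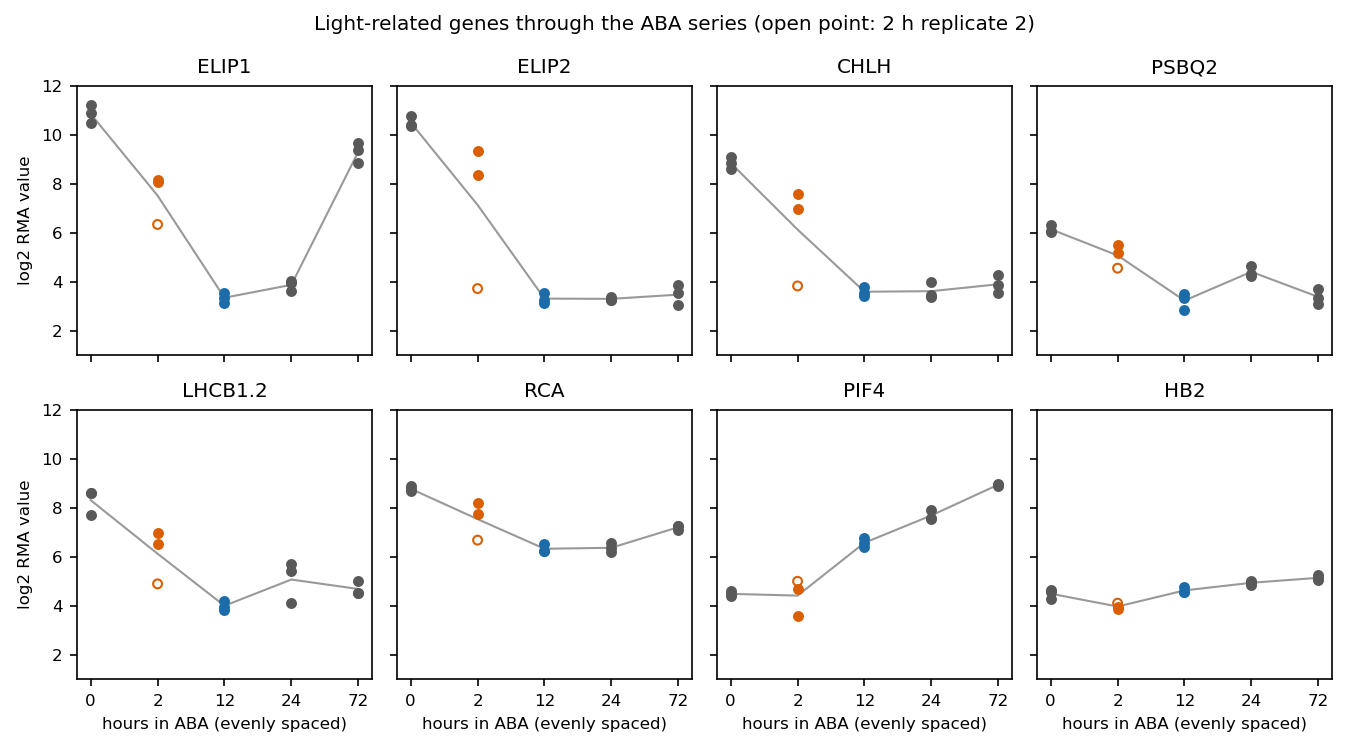
Log2 RMA values (vertical) of 8 light-related genes at 0, 2, 12, 24 and 72 h in ABA (horizontal, evenly spaced), with 1 point per array, 2 h in orange (replicate 2 open), 12 h in blue and a grey line through the means of 3 arrays. ELIP1 ends the 12 h at 3.15 to 3.57 after 6.35 to 8.16 at 2 h, and PIF4 rises from 3.56 to 4.99 to 6.38 to 6.75.

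The means at the other times place this step in the series. ELIP1 averaged 10.86 at 0 h, 3.88 at 24 h and 9.31 at 72 h, whereas ELIP2 averaged 10.51, 3.31 and 3.48. CHLH averaged 8.86 at 0 h, 3.62 at 24 h and 3.90 at 72 h. PIF4 averaged 4.48 at 0 h, 7.68 at 24 h and 8.94 at 72 h.

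Of 31 circadian clock genes 6 rose and 2 fell, against 3.27% and 1.62% of all loci, with a median of 0.14. The 14-array fit called 11 up and 4 down, against 8.44% and 6.84% of all loci, with a median of 0.30. The rises were of genes that peak from midday into the evening in light and dark cycles, the pseudo-response regulators PRR7, PRR5, PRR3 and TOC1 together with GI and FKF1. GI, a large nuclear protein that links the clock to flowering, read 3.05, 5.26 and 3.34 at 2 h and 5.99, 5.93 and 6.28 at 12 h. It rose by 2.18 ± 0.40 (adjusted p = 0.00917), or 2.87 without replicate 2, which lay between its mates and the 12 h arrays. PRR7 rose by 1.76 ± 0.41 (adjusted p = 0.0275), from 4.73, 7.24 and 5.89 to 7.69, 7.65 and 7.82. PRR5 rose by 1.39 ± 0.28 (adjusted p = 0.0131), from 4.12, 4.75 and 4.47 to 5.97, 5.45 and 6.10. In both genes the 12 h arrays stood above every 2 h array, as at 12.3% of all loci, and for PRR7 the naming rule required it. PRR3 rose by 1.23 ± 0.27 (adjusted p = 0.0206) and FKF1, a blue light receptor and F-box protein, by 1.44 ± 0.35 (adjusted p = 0.0321). TOC1 rose by 0.65 ± 0.15 (adjusted p = 0.025), from 6.92, 7.33 and 7.38 to 7.81, 7.77 and 8.01. PRR9 and LUX, an evening complex component, were called up only without replicate 2, by 1.88 ± 0.38 and 2.53 ± 0.23.

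The 2 clock genes that fell were RVE2, described above, and RVE1, which fell by 1.31 ± 0.31 (adjusted p = 0.0273), from 5.92, 4.45 and 5.93 to 4.16, 3.87 and 4.34. LHY, a morning MYB factor of the same family, read 8.79, 4.98 and 8.59 at 2 h and 6.04, 6.18 and 6.37 at 12 h. It was not called with all arrays (-1.25 ± 0.73, adjusted p = 0.249) and was called without replicate 2 (-2.49, adjusted p = 1.49e-04), with that array below the 12 h arrays. CCA1, the partner of LHY, was called in neither fit, at -0.34 ± 0.29 and -0.61 (adjusted p = 0.415 and 0.152). The calls of TOC1, PRR7 and FKF1 were lost with each array centred on its median (adjusted p = 0.106, 0.0651 and 0.0802) and without single arrays (adjusted p up to 0.131). That of PRR7 was also lost under repeated quantile normalization (adjusted p = 0.0516). With centring the list had 2 rises and 2 falls and a median of -0.02. Without 12 h replicate 1, and likewise without 12 h replicate 3, it had 1 rise and 1 fall. These were GI and RVE2, so PRR5, PRR3 and RVE1 also lost their calls there.

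**Figure D3:**
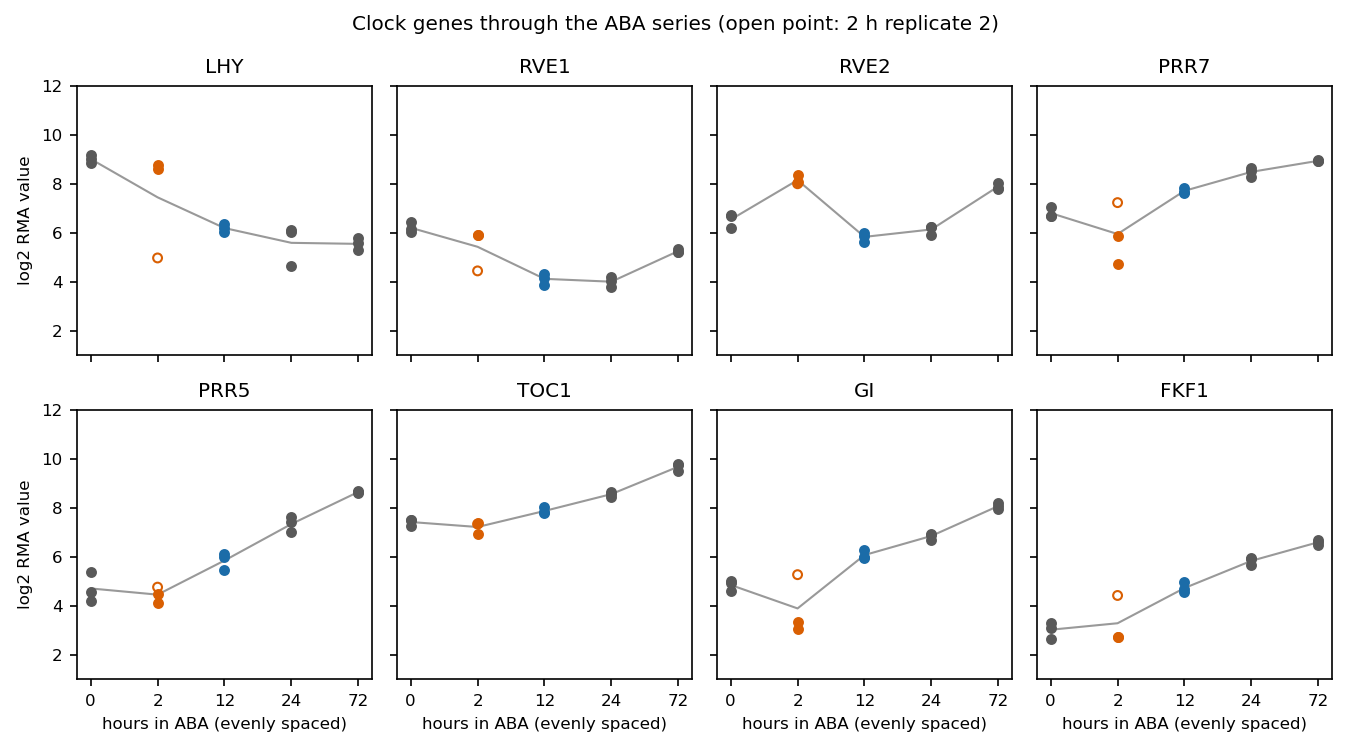
Log2 RMA values (vertical) of 8 clock genes at 0, 2, 12, 24 and 72 h in ABA (horizontal, evenly spaced), with 1 point per array, 2 h in orange (replicate 2 open), 12 h in blue and a grey line through the means of 3 arrays. RVE2 drops from 8.01 to 8.38 at 2 h to 5.62 to 6.00 at 12 h, and GI climbs from a 12 h mean of 6.06 to 8.07 at 72 h.

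The steps of the ABA pathway, from receptors to transcription factors, are given beside all loci. Of all loci 3.27% were called up and 1.62% down, and 8.44% and 6.84% in the 14-array fit. Of 14 receptors 1 fell and 0 rose, and the 14-array fit called 2 down and 1 up. PYL6 read 4.55, 4.03 and 3.94 at 2 h and 2.75, 3.25 and 3.62 at 12 h, a difference of -0.97 ± 0.20 (adjusted p = 0.0159) that ended near the lower quartile of locus means and after a 0 h mean of 8.68. Without 12 h replicate 1, or under repeated quantile normalization, the call was lost (adjusted p = 0.0755 and 0.165). PYL2 read 8.86, 6.25 and 8.28 and then 7.01, 7.17 and 7.30, and was called down only without replicate 2 (-1.41 ± 0.17, adjusted p = 9.24e-05).

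Of the 9 clade A phosphatases, the brakes of the pathway, 1 fell and 0 rose, and the 14-array fit called 2 up and 2 down. HAI1 read 4.65, 4.83 and 5.36 at 2 h and 3.31, 3.08 and 3.20 at 12 h, a difference of -1.75 ± 0.20 (adjusted p = 9.31e-04) that held whichever array was left out. The related HAI2 and HAI3 were higher at 12 h on every array, as were 12.3% of all loci. They were called only without replicate 2 (1.26 ± 0.28 and 0.88 ± 0.22, adjusted p = 0.00706 and 0.0159). PP2CA was called in neither fit (-0.21 ± 0.17 in the 15-array fit, adjusted p = 0.404). Of 10 SnRK2 kinases SNRK2.5 rose by 0.75 ± 0.18 and SNRK2.7 fell by 1.61 ± 0.37 (adjusted p = 0.032 and 0.0261), and the 14-array fit called 3 up and 2 down. The calls of SNRK2.5 and SNRK2.7 were lost without single arrays (adjusted p up to 0.144), SNRK2.5 also with centring (adjusted p = 0.0612) and SNRK2.7 under repeated quantile normalization (adjusted p = 0.169). OST1, the kinase of guard cell closure, read 7.64, 5.20 and 8.18 and then 7.48, 6.97 and 7.19, with no call in the 15-array fit (0.21 ± 0.52, adjusted p = 0.793). Replicate 2 lay below every 12 h array and its mates lay above them, so this difference turned negative without replicate 2.

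Among 20 transcription factors of seed maturation and ABA response 2 rose and 0 fell, with a median of -0.30, and the 14-array fit called 5 up and 8 down, with a median of 0.00. The count of falls depended on the scaling, with 1 up and 4 down when arrays were centred and 3 up and 4 down under repeated quantile normalization. EEL, a bZIP factor of late embryos, read 6.71, 7.76 and 7.27 at 2 h and 8.79, 8.45 and 8.67 at 12 h. It rose by 1.39 ± 0.22 (adjusted p = 0.00437), and its call held whichever array was left out. AREB3, a bZIP of the same group, rose by 0.57 ± 0.15 (adjusted p = 0.0402), a call lost with centring and without single 12 h arrays (adjusted p up to 0.155). ABI5, the bZIP factor through which ABA arrests young seedlings, read 9.82, 9.97 and 10.13 at 2 h and 9.54, 9.40 and 9.47 at 12 h. Every 12 h array lay below every 2 h array, as at 12.4% of all loci. ABI5 missed the threshold in the 15-array fit (-0.50 ± 0.14, adjusted p = 0.0573) and passed it in the 14-array fit (-0.50, adjusted p = 0.0268). ABI3, a B3 factor of seed maturation, was called in neither fit (0.31 ± 0.21 and -0.01). AFP1 and AFP3, proteins that bind ABI5, were called down only without replicate 2 (-1.68 ± 0.17 and -1.59 ± 0.20).

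Markers of the ABA response differed among themselves. Of 23, 4 fell and 0 rose, against 1.62% and 3.27% of all loci, with a median of -0.64. The 14-array fit called 11 down and 0 up, against 6.84% and 8.44% of all loci, with a median of -0.61. RD26, a NAC factor of drought and ABA responses, read 5.85, 7.24 and 8.18 at 2 h and 4.46, 4.09 and 4.77 at 12 h. It fell by 2.65 ± 0.49 (adjusted p = 0.00917) and kept its call whichever array was left out. HB7, a homeodomain factor, fell by 1.53 ± 0.36 (adjusted p = 0.0278), HVA22E by 1.0 ± 0.20 (adjusted p = 0.0124) and RD22 by 1.14 ± 0.31 (adjusted p = 0.049). The RD22 groups overlapped, with 2 h replicate 2 at 5.11 below 12 h replicate 1 at 5.41, and the calls of HB7 and HVA22E were lost without single 12 h arrays (adjusted p up to 0.101). Without 12 h replicate 3 only RD26 was called in the list, so the call of RD22 was lost too.

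RD29B, a gene widely used as a readout of ABA, read 9.98, 10.33 and 10.41 at 2 h and 10.23, 10.27 and 10.14 at 12 h, after a mean of 3.08 at 0 h. It was called in neither fit (-0.03 ± 0.20, adjusted p = 0.935). RAB18, a dehydrin, read 9.81, 11.89 and 10.55 and then 11.30, 11.20 and 11.04, and was called only without replicate 2 (1.0, adjusted p = 0.00162). Of 14 genes of ABA synthesis and breakdown none was called in the 15-array fit, where the median was 0.02. CYP707A1, an ABA 8′-hydroxylase, was the 1 call of the 14-array fit (-0.67, adjusted p = 0.029).

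Late embryogenesis abundant (LEA) proteins protect cells during drying. Of 45 genes 1 rose and 2 fell, against 3.27% and 1.62% of all loci, with a median of -0.03. The 14-array fit called 6 up and 4 down, against 8.44% and 6.84% of all loci. EM1 and EM6, the classic late embryo targets of ABI5, were called in neither fit, at -0.02 ± 0.20 and -0.06 ± 0.27 (adjusted p = 0.944 and 0.888). EM6 read 10.32, 11.68 and 10.76 at 2 h and 10.86, 10.88 and 10.85 at 12 h, with replicate 2 highest. LTI30, a cold- and drought-induced dehydrin, fell by 1.81 ± 0.41 (adjusted p = 0.0231), from 9.23, 10.46 and 10.01 to 8.46, 7.53 and 8.28. AT4G38410 fell by 1.2 ± 0.22 (adjusted p = 0.00953) and AT4G39130 rose by 1.13 ± 0.28 (adjusted p = 0.0358). All 3 calls were lost without single 12 h arrays (adjusted p up to 0.124), that of AT4G39130 also with centring (adjusted p = 0.0985) and that of AT4G38410 under repeated quantile normalization (adjusted p = 0.167). ERD10, another dehydrin, read 6.84, 4.60 and 8.30 and then 5.16, 5.0 and 5.07, and was called down without replicate 2 (-2.49 ± 0.28, adjusted p = 6.24e-05).

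Of the medians of all 41 lists, that of storage protein and oil body genes moved most without replicate 2, although the photosynthesis, chlorophyll and transcription factor lists gained more calls for their size. Of 24 genes 2 rose and 1 fell in the 15-array fit, against 3.27% and 1.62% of all loci, with a median of 0.30. The 14-array fit called 12 up and 1 down, against 8.44% and 6.84% of all loci, with a median of 1.28. The list median on the arrays was 6.44, 10.13 and 7.20 at 2 h and 8.56, 8.55 and 8.60 at 12 h. Replicate 2 exceeded both mates at 22 of the 24 genes. CRA1, a cruciferin storage globulin, read 7.53, 11.31 and 8.35 at 2 h and 10.92, 10.86 and 10.85 at 12 h. It was not called with all arrays (1.81 ± 0.64, adjusted p = 0.108) and was called without replicate 2 (2.94 ± 0.21, adjusted p = 2.09e-06). PAP85, a vicilin-like globulin, read 8.04, 11.86 and 8.62 and then 10.82, 10.71 and 10.91. OLEO2, an oleosin that coats oil bodies, read 8.91, 10.97 and 9.93 and then 11.12, 10.95 and 10.99. In each of these genes the other 2 arrays of 2 h lay below the 12 h arrays and replicate 2 lay within or above them.

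The 2 rises of this list that held in both fits were AT3G18570 (1.60 ± 0.37, adjusted p = 0.0257), from 5.74, 7.64 and 6.42 to 8.34, 8.20 and 8.06, and AT1G48990 (1.07 ± 0.26, adjusted p = 0.0351). CLO3, a caleosin of oil bodies induced by drought, fell by 1.04 ± 0.25 (adjusted p = 0.0281), from 3.3, 4.41 and 4.25 to 2.75, 3.13 and 2.94. Each of these calls was lost without any one of the 12 h arrays (adjusted p up to 0.133), and those of AT3G18570 and AT1G48990 also with centring (adjusted p = 0.059 and 0.0949). Repeated quantile normalization removed the calls of AT3G18570 and AT1G48990 too (adjusted p = 0.0511 and 0.065). TIP3;1, the aquaporin of the protein storage vacuole, behaved like the storage genes, with 5.38, 10.45 and 6.52 at 2 h and 9.85, 9.60 and 9.75 at 12 h. It was called up only without replicate 2 (3.79 ± 0.24, adjusted p = 6.59e-07). TIP1;1, the aquaporin of vegetative vacuoles, ran the opposite way, with 7.42, 3.93 and 6.95 and then 4.13, 4.00 and 4.06 (-3.12 ± 0.25 without replicate 2, adjusted p = 3.68e-06).

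**Figure D4:**
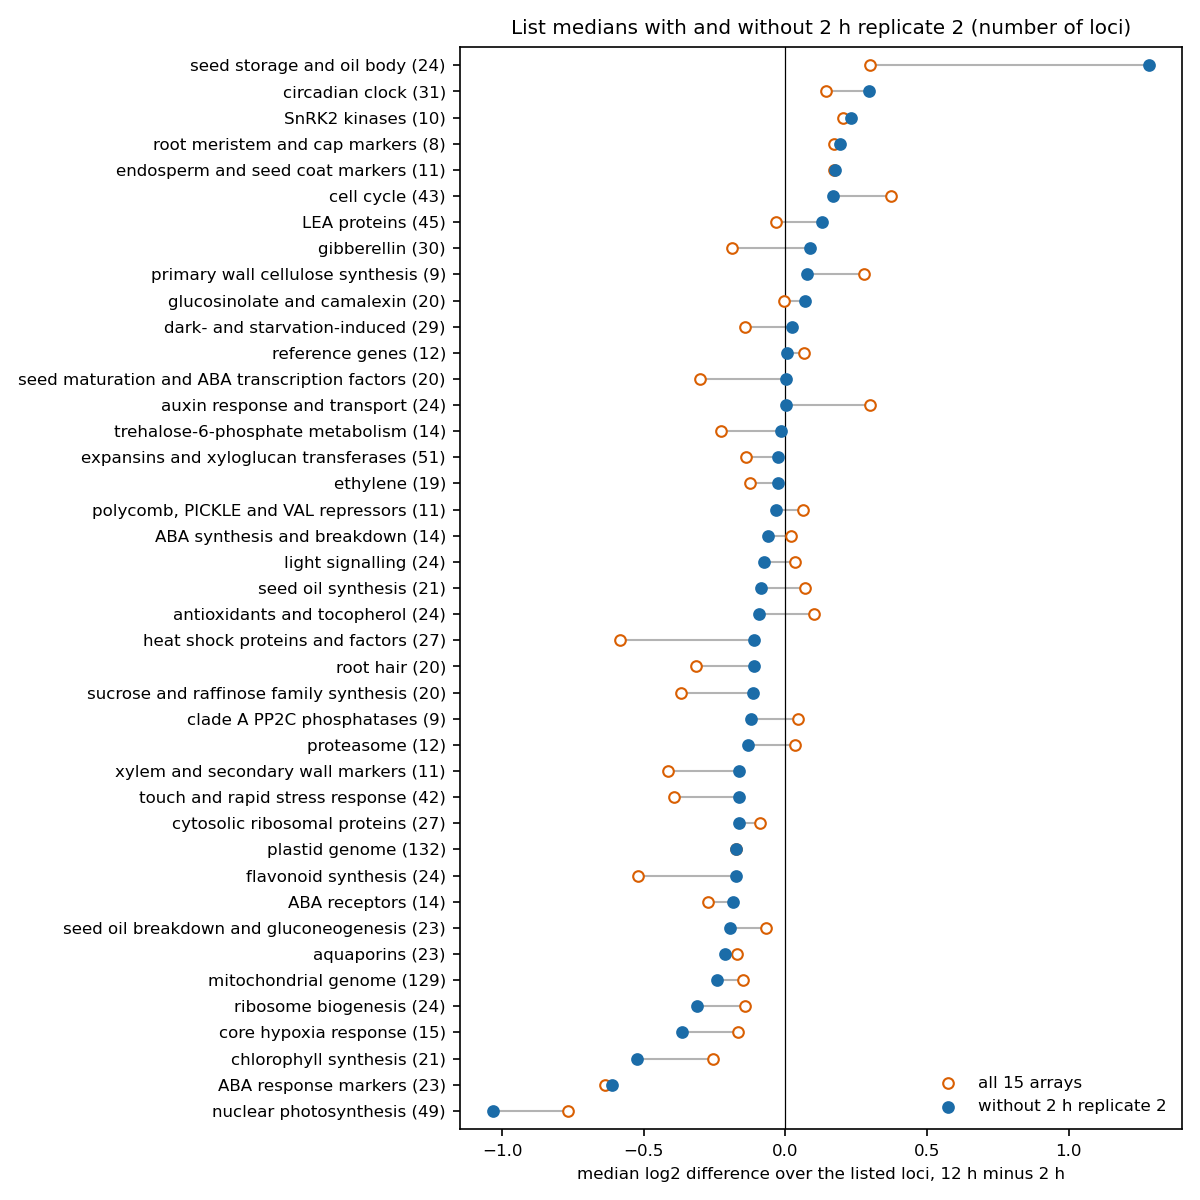
Median log2 difference between 12 h and 2 h (horizontal) over the loci of each of 41 lists (vertical, with the number of loci), in the 15-array fit (open orange) and without 2 h replicate 2 (blue). The storage and oil body list moves from 0.30 to 1.28, and nuclear photosynthesis is lowest in both fits at -0.77 and -1.03.

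Of 42 genes of rapid touch and stress responses 4 fell and 1 rose, with a median of -0.39, where 1.62% of all loci were called down and 3.27% up. Without replicate 2 there were 10 falls and 1 rise, with a median of -0.16, against 6.84% and 8.44% of all loci. CML38, a calmodulin-like calcium sensor, read 6.43, 6.18 and 6.71 at 2 h and 4.62, 4.14 and 5.03 at 12 h, a difference of -1.84 ± 0.29 (adjusted p = 0.00458). WRKY18, a defence transcription factor, read 6.59, 8.01 and 6.93 and then 5.76, 5.67 and 5.81, a difference of -1.43 ± 0.27 (adjusted p = 0.0104). Both calls held whichever array was left out. ZAT12 fell by 0.65 ± 0.16 and ERF105 by 0.69 ± 0.18, while the kinase MPK3 rose by 0.84 ± 0.22 (adjusted p = 0.0306, 0.0424 and 0.0456). ERF105 read 3.03, 3.48 and 2.92 at 2 h and 2.39, 2.34 and 2.63 at 12 h, near or below the lower quartile of locus means. The calls of ERF105 and MPK3 were lost without single arrays (adjusted p up to 0.152) and under repeated quantile normalization (adjusted p = 0.266 and 0.0571), and that of MPK3 with centring (adjusted p = 0.0762). Without 12 h replicate 1 only CML38 and WRKY18 were called in the list, so the call of ZAT12 was lost too. ZAT10, a zinc finger repressor, read 4.31, 8.21 and 5.66 and then 4.1, 3.52 and 4.18, with replicate 2 far above its mates, and was called only without that array (-1.05, adjusted p = 0.0303).

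Of 27 heat shock genes 2 fell and 0 rose, against 1.62% and 3.27% of all loci, with a median of -0.59. The 14-array fit called 3 down and 1 up, against 6.84% and 8.44% of all loci, with a median of -0.11. AT5G51440, a small heat shock protein of the mitochondrion, fell by 1.53 ± 0.20 (adjusted p = 0.002), from 5.43, 5.55 and 5.10 to 4.05, 3.72 and 3.73, and its call did not rest on any single array. HSP101, a disaggregase, was called in neither fit, with 5.08, 8.02 and 4.67 and then 4.80, 4.50 and 4.54. Of 19 ethylene genes 1 fell, ACO4, which makes ethylene from its precursor, by 1.02 ± 0.18 (adjusted p = 0.00805), from 4.06, 4.70 and 4.68 to 3.40, 3.51 and 3.47, and the 14-array fit called 2 down. None of 15 core hypoxia genes was called, and the 14-array fit called 4 down, among them PDC1, a pyruvate decarboxylase of fermentation (-1.86 ± 0.33, adjusted p = 0.00173).

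Of 43 cell cycle genes 4 rose and 0 fell, against 3.27% and 1.62% of all loci, with a median of 0.37. The 14-array fit called 9 up and 1 down, against 8.44% and 6.84% of all loci, with a median of 0.17. CYCB1;2, a mitotic cyclin, read 5.40, 5.10 and 5.21 at 2 h and 5.77, 5.99 and 6.09 at 12 h, a rise of 0.71 ± 0.16 (adjusted p = 0.0222). CYCA1;1 rose by 0.66 ± 0.13, CYCB1;4 by 0.65 ± 0.17 and CDKB1;1, a kinase of the G2 to M transition, by 0.84 ± 0.23 (adjusted p = 0.0127, 0.0409 and 0.0495). With each array centred, or under repeated quantile normalization, none of these 4 was called (adjusted p from 0.0696 to 0.139), and each was lost without at least 2 of the 6 arrays (adjusted p up to 0.172). Of 51 expansins and xyloglucan transferases, which loosen or remodel walls, 1 rose and 1 fell, and the 14-array fit called 10 up and 5 down. EXPA14 rose by 1.21 ± 0.19 (adjusted p = 0.00465), from 4.67, 5.07 and 4.2 to 5.86, 5.99 and 5.71. XTH30 fell by 1.02 ± 0.15 (adjusted p = 0.00308), from 4.81, 4.77 and 4.75 to 3.86, 3.65 and 3.77. Neither call rested on a single array.

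Among 24 auxin genes 3 rose and 1 fell, against 3.27% and 1.62% of all loci. The 14-array fit called 6 up and 2 down, against 8.44% and 6.84% of all loci. The rises were all of transporters, the efflux carriers PIN2 (0.73 ± 0.15) and PIN7 (0.85 ± 0.18) and the influx carrier LAX3 (0.90 ± 0.20), at adjusted p of 0.0164, 0.0186 and 0.0242. GH3.3, which conjugates auxin to amino acids, fell by 1.52 ± 0.32 (adjusted p = 0.0165), with replicate 2 at 5.54 above its mates at 4.42 and 4.01. All 4 calls were lost without single 12 h arrays (adjusted p up to 0.118), and that of LAX3 with centring (adjusted p = 0.059). Of 30 gibberellin genes 1 rose, GA20OX2, a synthesis enzyme, by 0.99 ± 0.16 (adjusted p = 0.00533), from 4.09, 3.91 and 4.54 to 5.24, 5.06 and 5.22. It was called whichever array was left out, and the 14-array fit called 3 genes of the list up and 2 down.

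Markers of tissues gave the following, where 3.27% of all loci were called up and 1.62% down. Of 11 endosperm and seed coat genes MAN7, an endo-mannanase of the endosperm wall, rose by 0.69 ± 0.18 (adjusted p = 0.0466), and EPR1, an extensin-like gene of the micropylar endosperm, read 8.77, 11.55 and 10.13 and then 10.55, 10.25 and 10.40. The list median ran from 5.83 to 6.25 at 2 h and from 6.10 to 6.27 at 12 h. Of 8 root meristem and cap genes 2 rose, SMB, a NAC factor of the root cap (1.1 ± 0.22, adjusted p = 0.0124), from 3.84, 4.57 and 3.87 to 5.30, 5.08 and 5.21, and PLT1, a root stem cell factor (0.98 ± 0.26, adjusted p = 0.0494), which the 14-array fit did not call (adjusted p = 0.0553). The list median ran from 3.90 to 4.40 at 2 h and from 4.72 to 4.81 at 12 h. Of 20 root hair genes RSL1, a bHLH factor that starts root hairs, rose by 1.08 ± 0.19 (adjusted p = 0.00662), from 3.71, 4.40 and 3.80 to 4.88, 5.15 and 5.11. Of 11 xylem and secondary wall genes LAC4, a laccase of lignin, fell by 1.17 ± 0.23 (adjusted p = 0.0113), and the list median ran from 3.44 to 3.74 at 2 h and from 2.82 to 3.39 at 12 h, near the lower quartile of locus means. In the 14-array fit 2 were called up in each of the endosperm, root meristem and root hair lists and 1 down in the xylem list. That fit called 8.44% of all loci up and 6.84% down. The part of these markers in the other results was not tested. The call of RSL1 did not rest on any single array. The calls of MAN7, SMB and LAC4 were lost without single arrays (adjusted p up to 0.142), and those of MAN7 and SMB with centring (adjusted p = 0.116 and 0.0554).

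In sugar metabolism, 2 of 20 genes of sucrose and raffinose sugars rose and 3 fell, against 3.27% and 1.62% of all loci. The 14-array fit called 3 up and 6 down, against 8.44% and 6.84% of all loci. SUS4, a sucrose synthase, read 4.19, 4.06 and 4.69 at 2 h and 2.89, 2.92 and 2.94 at 12 h, a difference of -1.40 ± 0.19 (adjusted p = 0.00215) that no single array decided. SUS5 fell by 0.95 ± 0.20 and RS5, a raffinose synthase, by 0.59 ± 0.15, whereas SPS1F, a sucrose phosphate synthase, rose by 0.69 ± 0.15 (adjusted p from 0.0153 to 0.0409). With centring SPS1F was not called (adjusted p = 0.0782), and the calls of SUS5 and SPS1F were lost without single 12 h arrays (adjusted p up to 0.105), that of SUS5 also under repeated quantile normalization (adjusted p = 0.19). Without 12 h replicate 1 only SUS4 was called down in the list of sucrose and raffinose sugars, so the call of RS5 was lost too. Among 29 genes induced by darkness or starvation 1 rose and 0 fell, and the 14-array fit called 3 up and 9 down. GDH1, a glutamate dehydrogenase that opens amino acids to respiration, rose by 1.46 ± 0.20 (adjusted p = 0.00238), from 6.39, 7.12 and 6.42 to 8.30, 7.97 and 8.06, and kept its call without any one array. DRM2, a dormancy-associated gene, read 4.13, 7.30 and 4.54 and then 7.45, 7.16 and 7.31, and was called only without replicate 2 (2.97 ± 0.19, adjusted p = 6.59e-07).

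Of 23 genes of seed oil breakdown AIM1, a beta-oxidation enzyme, rose by 0.51 ± 0.13, and of 21 genes of oil synthesis FATB, an acyl carrier protein thioesterase, rose by 0.54 ± 0.11 (adjusted p = 0.0341 and 0.0151), with no fall in either list in the 15-array fit. The 14-array fit called 1 up and 4 down in the breakdown list, with a median of -0.20, and 3 up and 2 down in the synthesis list. Of all loci 3.27% were called up and 1.62% down in the 15-array fit, and 8.44% and 6.84% in the 14-array fit. The calls of AIM1 and FATB were lost with centring (adjusted p = 0.146 and 0.102) and without single arrays (adjusted p up to 0.112). That of AIM1 was also lost under repeated quantile normalization (adjusted p = 0.0559). Of 14 trehalose-6-phosphate genes TPPJ, a phosphatase, fell by 0.85 ± 0.20 (adjusted p = 0.0278), and the 14-array fit called 2 down.

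Of 24 flavonoid genes 3 fell and 0 rose, against 1.62% and 3.27% of all loci, with a median of -0.52. In the 14-array fit 6 were called down and 1 up, against 6.84% and 8.44% of all loci, with a median of -0.18. CHIL, a helper of chalcone synthase, fell by 1.52 ± 0.28 (adjusted p = 0.00965), from 6.12, 5.26 and 5.56 to 4.07, 3.92 and 4.39. FLS1, flavonol synthase, fell by 1.48 ± 0.30 and MYB12, the flavonol regulator, by 1.04 ± 0.28 (adjusted p = 0.014 and 0.0476). CHS, the entry enzyme, was called only without replicate 2 (-2.11 ± 0.27, adjusted p = 1.35e-04). Of 20 glucosinolate and camalexin genes 2 rose and 1 fell, and the 14-array fit called 7 up and 1 down. CYP79B2, which turns tryptophan into the oxime for indole glucosinolates, read 6.95, 8.34 and 6.50 at 2 h and 8.93, 9.17 and 8.95 at 12 h. It rose by 1.75 ± 0.33 (adjusted p = 0.00965), and CYP83B1, the next enzyme, rose by 0.83 ± 0.20 (adjusted p = 0.0326). TGG2, a myrosinase, fell by 0.79 ± 0.18 (adjusted p = 0.0261). Of 24 antioxidant genes DHAR1, which recycles ascorbate, rose by 0.92 ± 0.13 (adjusted p = 0.00211), from 7.60, 7.39 and 7.79 to 8.52, 8.59 and 8.44. FSD1, an iron superoxide dismutase, rose by 1.5 ± 0.36 and VTE5, a phytol kinase of tocopherol synthesis, fell by 0.90 ± 0.20 (adjusted p = 0.0297 and 0.0219), and the 14-array fit called 4 of the list up and 3 down. Of 23 aquaporins TIP2;2 fell by 0.59 ± 0.15 (adjusted p = 0.0372), and the 14-array fit called 2 up and 6 down. The calls of CHIL, CYP79B2 and DHAR1 did not rest on any single array, whereas those of FLS1, MYB12, CYP83B1, TGG2, FSD1, VTE5, TIP2;2 and TPPJ did (adjusted p up to 0.168). Repeated quantile normalization also removed the calls of MYB12, TGG2, VTE5, TIP2;2 and TPPJ (adjusted p from 0.0724 to 0.326), and centring that of CYP83B1 (adjusted p = 0.113).

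Several lists had no call in the 15-array fit. None of 27 cytosolic ribosomal protein genes, 9 of primary wall cellulose synthesis, 11 of chromatin repressors, 12 of the proteasome or 12 reference genes was called, with medians from -0.09 to 0.28. The 14-array fit called 2 of the ribosomal protein genes down and none in the other 4 lists. Of 24 ribosome biogenesis genes SWA1, a nucleolar protein, fell by 0.91 ± 0.22 (adjusted p = 0.0283), a call lost without single 12 h arrays (adjusted p up to 0.125), and the 14-array fit called 7 down. Of 132 plastid genome loci 2 were called down and 0 up, against 1.62% and 3.27% of all loci, but these 2, ATCG00980 and ATCG01150, carry identical values on all 15 arrays and are 1 measurement. Of 129 mitochondrial genome loci 8 were called down and 0 up, which were 7 distinct measurements. Without replicate 2 the calls were 18 down and 0 up in each list, or 14 and 17 distinct measurements, against 6.84% of all loci called down. The medians were -0.17 and -0.15 in the 15-array fit, against -0.09 over all loci.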

How the data were processed

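The deposited table holds log2 values, produced by the authors with RMA per the submitters' processing notes. RMA corrects background, normalizes quantiles and summarizes probes. The sources used here give no RMA version, array design or genome build. Biotin-labelled cDNA was made from 50 ng of RNA, per the labels' protocols. Of 35986 probe sets, 1 per locus was kept, the one with the highest mean over the 15 arrays, which left 27981 loci. Symbols came from the TAIR10.1 RefSeq gene table, used for names only, which held 27241 of the loci.

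limma 3.58.1 in R 4.3.3 was fitted to all 15 arrays with 1 mean per time, and the 12 h minus 2 h contrast was adjusted by Benjamini-Hochberg over all 27981 loci. The number of arrays limits the precision. The fit was tested on simulated data. Named loci were the 12 largest rises and 12 largest falls called alike with and without 2 h replicate 2 and with non-overlapping arrays, up to 4 members of each list by the same criteria, and 14 genes named whatever their values, ABI3, ABI5, RD29B, EM1, EM6, RAB18, PYL6, PP2CA, LHY, CCA1, TOC1, GI, CHLH and ELIP1. Other genes were chosen after their values were seen, to show where replicate 2 lay. One named locus is not reported here. The comparison, its members, the gene lists and the markers were chosen with earlier results of these data known.

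The alternatives were each array of 2 h or 12 h left out, only the 6 arrays, a replicate block, repeated quantile normalization, median centring, the dimmest 25% of loci left out, a variance trend, array weights, every probe set, a stricter threshold, and combinations without 2 h replicate 2.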

Additional observations from a re-analysis of the deposited data

How the results depend on the processing

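No locus called in the 15-array fit changed direction under any setting run on 1 probe set per locus. The 1369 calls ranged from 380 to 4765 when single arrays were left out, the 916 rises from 236 to 2362 and the 453 falls from 125 to 2544. The 6-array fit gave 0 calls, array weights 3301 (1876 up, 1425 down), an adjusted p under 0.01 309 (209 and 100) and a difference of at least 1 447 (276 and 171). Centring gave 376 up and 723 down. Without 2 h replicate 2, the 5 remaining arrays alone gave 2353 (1039 down), centring 4086 (1622 and 2464) and the replicate block 4056 (2230 and 1826). These 3 settings were chosen after the data were seen. The 2 h and 12 h arrays share replicate numbers. Deviations from the time means correlated at 0.0174, 0.132 and 0.0264 for same-numbered arrays and from -0.211 to 0.194 for the others. With 3 arrays per time and 2 h replicate 2 apart, these values cannot show whether same-numbered arrays were paired in more than number. The 15-array fit did not pair them, and the replicate block gave 1304 calls (801 up, 503 down). Repeated normalization (1340), leaving out dim loci (1820), a variance trend (1561) and every probe set (1957) kept the total within 1.5 times. The loci called were not all the same. Of the 1369 calls, repeated normalization kept 966, leaving out dim loci 1319, a variance trend 1297 and centring 815. The uncalled differences of 5 genes changed sign. With single arrays left out, ABI3 (AT3G24650) ranged from -0.0144 to 0.492, RD29B (AT5G52300) from -0.156 to 0.0603, EM1 (AT3G51810) from -0.223 to 0.244, EM6 (AT2G40170) from -0.36 to 0.321 and RAB18 (AT5G66400) from -0.0418 to 0.995. Without 2 h replicate 2 the values were the same from the 5 arrays alone (ABI3 -0.0144, RD29B 0.0183, EM1 0.244, EM6 0.321). With the block added they were -0.0173, 0.0069, 0.258 and 0.362. With centring added they were -0.0998 for ABI3, 0.159 for EM1 and 0.236 for EM6. Repeated normalization gave 3e-04 for EM1 and 0.0437 for EM6, and array weights 0.184 and 0.219. The cause of these shifts was not tested. With 3 arrays per time, the median standard error was 0.21, and 0.15 without replicate 2.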
